A study of Mus musculus with 6 samples.

Results

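Effector cytokines and death ligands are the secreted and membrane-bound proteins by which an activated CD8+ T cell acts on other cells. A set of 10 mouse genes was examined here: Ifng, Tnf, Lta, Ltb, Il2, Csf2, Il3, Il10, Fasl and Tnfsf10. They were found by gene name among the 54446 genes of the deposited files, and each name matched 1 gene. RNA-Seq had been performed on 6 libraries of splenic CD8+ T cells from wild type C57BL/6 mice aged 8 weeks, with 2 libraries in each of 3 groups. The study's methods describe enrichment of the CD8+ T cells by a kit for negative selection, which is meant to take out other cells, B cells among them. The Unstimulated group held fresh cells without stimulation. The Control and SMF groups were both stimulated for 72 h by antibodies to CD3 and CD28 fixed to the plate, the SMF cells on permanent magnets giving a static magnetic field (SMF) of 0.3 T and the Control cells without magnets. No library of unstimulated cells in the field was analysed here. The labels do not say whether the libraries of a group came from separate mice or cultures, so p values measure only the spread between these libraries, which may be technical.

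Interferon gamma, encoded by Ifng, activates macrophages and raises antigen presentation. Tumor necrosis factor (Tnf), lymphotoxin alpha (Lta) and lymphotoxin beta (Ltb) are neighbours in the major histocompatibility complex: the products of Tnf and Lta signal through TNF receptors, and lymphotoxin beta holds lymphotoxin alpha at the cell surface. Interleukin 2 (Il2) drives T cell growth, GM-CSF (Csf2) and interleukin 3 (Il3) act on myeloid and progenitor cells, and interleukin 10 (Il10) restrains inflammation. Fas ligand (Fasl) and TRAIL (Tnfsf10) trigger death receptors on target cells. Many cytokine mRNAs are short-lived because AU-rich elements in their 3′ untranslated regions (UTRs) recruit decay proteins such as tristetraprolin, the product of Zfp36, so that their level is set by decay as well as by transcription.

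The letters of these decay elements could be read for all 10 genes. The pentamer ATTTA, the core of an AU-rich element, was searched on the sense strand of the GENCODE M21 transcripts, with overlapping matches counted and 1 3′ UTR per gene. It occurred in 65.2% of 21045 3′ UTRs, and in those of 9 of the 10 genes. The longer form TTATTTATT occurred in 7.65% of them, and in Tnf, Lta, Il2 and Csf2. Csf2 held 9 copies of ATTTA in a 3′ UTR of 317 bases, which is 28.4 per kb and at or above 99.9% of the genes. Il2 held 7 copies, Tnf 8 and Ifng 6. Fasl held 1 copy in 887 bases and Ltb none in 156 bases. The 30-base stretch with most copies is shown for 6 genes to set the dense elements beside the sparse one, written as DNA from 5′ to 3′ with ATTTA in capitals.
Csf2: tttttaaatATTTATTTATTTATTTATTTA
Tnf: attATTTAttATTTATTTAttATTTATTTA
Il2: ctATTTATTTAaatATTTAactttaATTTA
Ifng: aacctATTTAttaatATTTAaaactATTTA
Lta: tATTTAtggagagaaaagttaagttATTTA
Fasl: gctgtttttctttaatacaactagtATTTA
These matches describe the letters only, and no mRNA half-life was measured in these libraries.

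The level of a gene is given as FPKM, mapped fragments per kilobase of transcript after scaling each library to a common size, added up here over its transcripts. FPKM allows for transcript length, so levels of different genes can be set side by side, though only roughly. It does not allow for reads that pile up in part of a transcript, as they did for Ifng and Tnfsf10. The bases covered by reads over all transcripts came to between 64.4 and 172 Mb in the Unstimulated and Control libraries and to 259 and 227 Mb in the SMF libraries, so a gene listed at 0 had less depth behind it in the former. Folder dates in the file headers were shared by the first Unstimulated and Control libraries, by the second ones, and by both SMF libraries. No date held an SMF library together with a Control or Unstimulated one. In SMF against Control, the date, the depth and the field thus cannot be told apart. In SMF against Unstimulated, neither the date nor the depth can be told apart from stimulation in the field. Differences were fitted by limma on log2(FPKM + 1) over the 14991 genes whose mean reached 1 FPKM. A gene was called changed at a change of 2-fold or more with a limma p no higher than 0.05. These are the limits of the study, whose methods do not say whether p was adjusted. The unadjusted p was used here, and the Benjamini-Hochberg adjusted p over all genes tested is given beside it. The 3 comparisons share libraries and are not independent of one another.

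The cell type and the stimulation could be checked by marker genes. Summed over 5 CD8 T cell markers, the level was 521 and 632 FPKM in the Unstimulated libraries, 271 and 441 FPKM in the Control libraries and 748 and 629 FPKM in the SMF libraries. The 5 activation markers summed to 89.6 and 106 FPKM in the Unstimulated libraries and to between 1658 and 4619 FPKM in the 4 stimulated ones. Most of the latter was Gzmb, at 1494 to 4283 FPKM. Il2ra, Mki67 and Cd44 were also higher in every stimulated library. Cd69 was not: it was at 62.1 and 79.4 FPKM in Unstimulated, 44.4 and 47.6 FPKM in Control and 78.0 and 83.6 FPKM in SMF. Summed markers of B, NK, myeloid and erythroid cells were highest in both Unstimulated libraries, and those of CD4 T cells were not. A set of 4 B cell markers summed to 128 and 93.2 FPKM there, against 23.3 and 8.31 FPKM in Control and 4.85 and 2.71 FPKM in SMF, where Ms4a1 was listed at 0. The 4 NK cell markers summed to 18.5 and 10.5 FPKM in Unstimulated and to at most 2.29 FPKM in stimulated libraries, where Ncr1 and Klrb1c were listed at 0. The 7 myeloid markers summed to 131 and 153 FPKM against 41.1 to 53.8 FPKM, nearly all of the latter Csf1r, with Lyz2 listed at 0 in every stimulated library. The 5 erythroid markers summed to 18.3 and 21.8 FPKM against 1.51 to 10.1 FPKM. Most of this sum was Alas2 in every library, at 18.3 and 16.3 FPKM in Unstimulated. The globin genes among them were listed at 0 except in Unstimulated replicate 2, where Hba-a1 and Hba-a2 were at 2.77 and 2.76 FPKM. The 3 CD4 T cell markers summed to 25.02 and 12.1 FPKM in Unstimulated, 12.8 and 22.8 FPKM in Control and 12.8 and 13.5 FPKM in SMF, so that the groups overlapped. The highest of the 3 was Foxp3, at 20.7 and 4.92 FPKM in Unstimulated, 11.9 and 19.3 FPKM in Control and 11.9 and 11.8 FPKM in SMF. It was most of the sum except in Unstimulated replicate 2, where Cd4 was close to it at 4.68 FPKM. Cd4 was listed at 0 in 3 of the 4 stimulated libraries. The part of such cells in the differences between stimulated and Unstimulated libraries was not tested, and in bulk RNA fewer cells of a type and less RNA per cell cannot be told apart.

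Of the 10 genes, 8 passed the filter of 1 FPKM, while Il2 and Il10 were listed at 0 in all 6 libraries and were not tested. Il3 passed it through the SMF libraries alone, and Csf2 through the stimulated ones alone. Against a group listed at 0 these genes could only be higher. Their calls and lack of overlap there are thus no evidence of direction beside the shares of all genes. In Control against Unstimulated, 3 of 8 were called higher (Ifng, Csf2 and Fasl) and 0 lower, where 12.3% of all genes tested were called higher and 12.6% lower. In SMF against Unstimulated, 5 of 8 were called higher (Ifng, Tnf, Lta, Csf2 and Il3) and 0 lower, where 22.4% of all genes were called higher and 14.8% lower. In SMF against Control, 2 of 8 were called higher (Tnf and Il3) and 0 lower, where 12.5% of all genes were called higher and 5.72% lower. At an adjusted p under 0.05 by limma, 1, 4 and 0 of the 8 were called in these comparisons, all of them higher. Of all genes tested, 4.52% were then called higher and 3.96% lower in Control against Unstimulated, 14.2% and 9.40% in SMF against Unstimulated, and 0.0200% and 0.00667% in SMF against Control. Every library of 1 group was above every library of the other for 5 higher and 1 lower gene in Control against Unstimulated, where 24.8% and 26.6% of all genes were so. In SMF against Unstimulated these were also 5 and 1, where 39.7% and 26.0% of all genes were so. In SMF against Control they were 4 and 0, where 37.4% and 17.4% of all genes were so. The median log2 fold change over genes of the set with no group at 0 was 1.42 for 6 genes in Control against Unstimulated, where it was -0.05 over all genes tested. It was 2.11 for 6 genes in SMF against Unstimulated, where it was 0.27 over all genes. It was 0.22 for 7 genes in SMF against Control, against 0.32 over all genes.

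**Figure D1:**
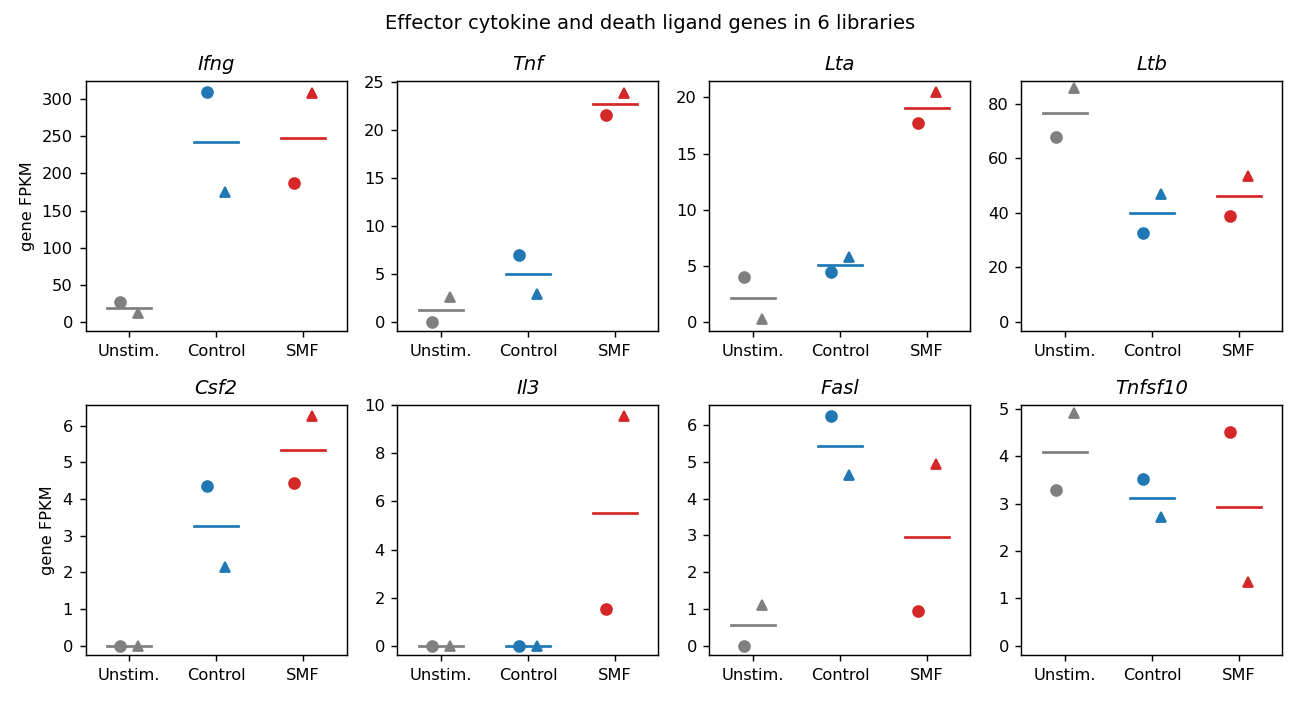
Gene FPKM (linear axes, a scale of its own for each gene) of the 8 genes listed above 0, in the Unstimulated, Control and SMF libraries. Circles are replicate 1, triangles replicate 2 and bars the mean of the 2 libraries. Ifng was high in all 4 stimulated libraries, Tnf and Lta were highest in both SMF libraries, and Ltb was highest in both Unstimulated libraries.

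Ifng was the most abundant of the set after stimulation, and its Control and SMF levels overlapped. It lies on chromosome 10 of GRCm38, forward strand, chr10:118441046-118445892. The 2 Unstimulated libraries gave 26.3 and 12.7 FPKM, the Control libraries 310 and 175 FPKM and the SMF libraries 187 and 308 FPKM. Every stimulated library lay above both Unstimulated ones, while the Control and SMF values interleaved. Control against Unstimulated gave a log2 fold change of 3.59 (SE 0.48, n = 2 libraries per group, adjusted p = 0.014 by limma), a ratio of mean FPKM of 12.4. Within each folder date the difference was 3.51 and 3.68. SMF against Unstimulated gave 3.64 (SE 0.48, adjusted p = 0.0067). Both calls held in every alternative, with adjusted limma p values up to 0.15 and 0.090. The difference of SMF from Control was 0.05 on the log2 scale, with a 95% interval from -1.11 to 1.20 that allows a change of more than 2-fold either way. Its sign changed when libraries were set to 1 median (-0.30) or to 1 level of Actb (-0.57). Among all genes of a library, ordered from the highest FPKM, Ifng ranked 2933 and 5120 in Unstimulated, 246 and 441 in Control and 413 and 239 in SMF.

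Reads on Ifng lay mostly in its last exon. Exon 4, which takes 61.2% of the transcript and ends with the 3′ UTR, held 94.4% and 96.2% of the covered bases in Unstimulated, 85.8% and 84.6% in SMF, and 95.3% in Control replicate 1. Control replicate 2 differed, with 70.8% in exon 4 and 7.60% in exon 1, where the other 5 libraries had at most 1.39%. The 2 Control libraries therefore differed in how far reads reached towards the 5′ end, though both were far above Unstimulated. The full-length transcript took at least 98.5% of the gene's FPKM in every library. A further annotated gene, AC153498.1, shares 336 of the 1295 exon bases of Ifng on the same strand and reached at most 2.32 FPKM, so that reads in the shared stretch may have been split between them.

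**Figure D2:**
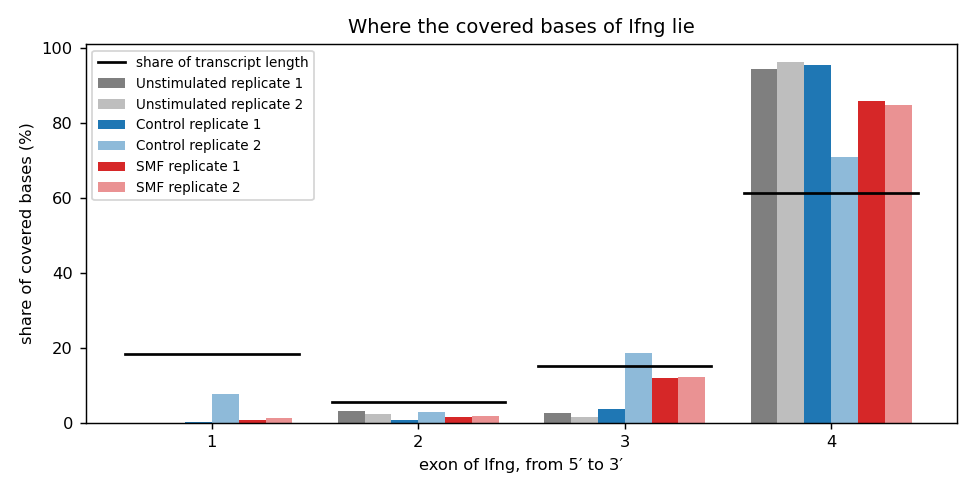
Share of the covered bases of the main Ifng transcript (percent, linear axis) in each of its 4 exons from 5′ to 3′, with 1 bar per library and a black line for the share of the transcript length in that exon. Exon 4 held most covered bases in every library, from 70.8% in Control replicate 2 to 96.2% in Unstimulated replicate 2.

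Tnf and Lta showed another pattern, with their highest levels in both SMF libraries. Tnf (chr17:35199381-35202007, reverse strand) was listed at 0 and at 2.57 FPKM in Unstimulated, at 7.01 and 2.90 FPKM in Control and at 21.5 and 23.9 FPKM in SMF. All 3 groups were separate, with Control replicate 2 close to the higher Unstimulated library. The log2 fold change of SMF against Unstimulated was 3.65 (SE 0.74, adjusted p = 0.020 by limma). Control against Unstimulated gave 1.56 (SE 0.74, adjusted p = 0.24), which was not called, and the 2 folder dates gave 3.002 and 0.12. Without Unstimulated replicate 2 it was called, at 2.48 and an unadjusted limma p of 0.028. SMF against Control gave 2.08 (SE 0.74, 95% interval 0.30 to 3.87), a ratio of mean FPKM of 4.58. This was called at an unadjusted limma p of 0.029, but its adjusted p was 0.20. Each of the 4 stimulated libraries was needed for the call. The difference stayed between 1.56 and 2.60 when 1 of them was left out, with unadjusted limma p values from 0.057 to 0.18. With libraries set to 1 Actb level, it was 1.47 (unadjusted limma p of 0.13).

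The coverage behind Tnf was thin outside the SMF group. Tnf had 964 and 1030 covered bases in Control and 10971 and 10705 in SMF, over a transcript of 1639 bases. In SMF, all 4 exons were covered in both libraries, and the last exon, with the 3′ UTR, held 87.9% and 71.5% of the covered bases. In Control replicate 2, exons 2 and 3 were not covered. In Unstimulated replicate 2 the reads lay in the last exon alone.

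Lta (chr17:35203165-35205351, reverse strand) lies upstream of Tnf on the same strand, with 1157 bases between the genes. It was at 4.02 and 0.26 FPKM in Unstimulated, at 4.46 and 5.76 FPKM in Control and at 17.7 and 20.4 FPKM in SMF. The SMF libraries lay above all others, while Control replicate 1 was close to the higher Unstimulated library. SMF against Unstimulated gave a log2 fold change of 2.99 (SE 0.71, adjusted p = 0.031 by limma). The call was lost without SMF replicate 2, at 2.89 and an unadjusted limma p of 0.053. Control against Unstimulated gave 1.27 (SE 0.71, adjusted p = 0.32), and without Unstimulated replicate 1 it was called, at 2.27 and an unadjusted limma p of 0.011. SMF against Control gave 1.72 (SE 0.71, 95% interval -0.01 to 3.45, unadjusted limma p of 0.051, adjusted p = 0.24), a ratio of mean FPKM of 3.73 that just missed the rule. Fitted on the SMF and Control libraries alone it was called (unadjusted limma p of 0.0095, adjusted p = 0.16, where the alternatives ranged from 0.16 to 0.78). Lta had 517 and 1728 covered bases in Control and 7610 and 7733 in SMF.

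Ltb (chr17:35194439-35196320, forward strand) lies 3060 bases from Tnf on the other side and is transcribed towards it. Its level was highest without stimulation, at 67.8 and 85.7 FPKM in Unstimulated, 32.7 and 46.9 FPKM in Control and 38.9 and 53.6 FPKM in SMF. Both Unstimulated libraries lay above all stimulated ones, and the Control and SMF values overlapped. Control against Unstimulated gave -0.94 (SE 0.33, unadjusted limma p of 0.029, adjusted p = 0.14), just under the fold of 2, and the folder dates gave -1.03 and -0.86. Without Control replicate 2 it was called. SMF against Unstimulated gave -0.73 (SE 0.33, adjusted p = 0.16). SMF against Control gave 0.22 (95% interval -0.59 to 1.02), and its sign changed with libraries set to 1 median, to 1 Actb level or to equal quantiles. B cells also express Ltb, and the summed B cell markers moved in the same direction between Unstimulated and stimulated libraries, although the cells had been enriched by negative selection. Their part in the Ltb level was not tested.

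The annotated transcripts of Ltb shared its reads unequally. A transcript that keeps an intron, ENSMUST00000173510.1, took 50.0% and 33.4% of the Ltb FPKM in Unstimulated, 18.3% and 3.72% in Control and 39.2% and 6.84% in SMF. The replicates of Control and of SMF lay far apart, and the SMF range overlapped those of the other groups. In Unstimulated, exon 1 of this transcript, which lies within exon 1 of the main transcript, had 12.1 and 24.1 reads per base. Its exon 2, which holds the intron, had 1.90 and 2.53. The shares therefore depend on how reads in shared stretches were assigned, and are not a count of intron reads. The spliced main transcript alone was at 33.9 and 57.1 FPKM in Unstimulated, 26.7 and 45.2 FPKM in Control and 23.6 and 49.9 FPKM in SMF. Counted by the spliced main transcript, the groups overlapped, though this too depends on how the shared reads were assigned.

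**Figure D3:**
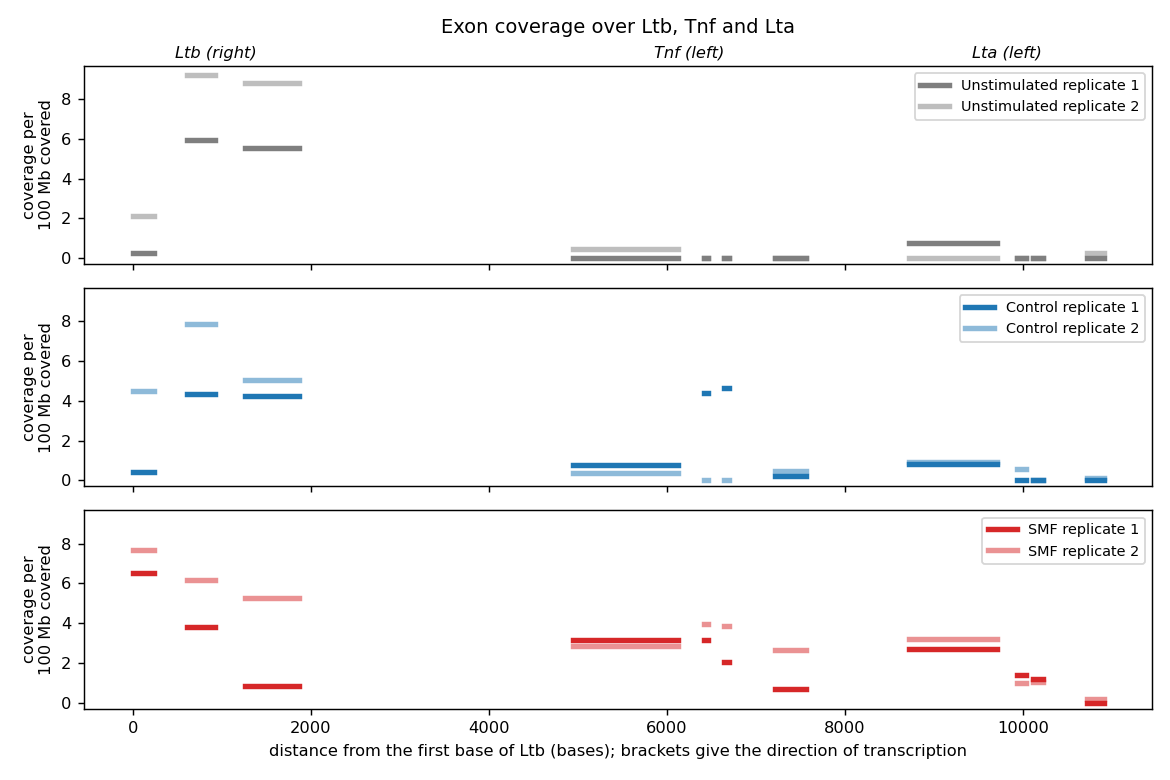
Coverage of each exon of the main transcripts of Ltb, Tnf and Lta, in mean reads per base per 100 Mb of covered bases in the library (linear axis), against the distance from the first base of Ltb in bases. Dark lines are replicate 1 and pale lines replicate 2. The last exons of Tnf (3.15 and 2.85) and Lta (2.72 and 3.21) stood higher in SMF than in the other 4 libraries (at most 0.80 and 0.94), while 2 short Tnf exons reached 4.66 and 4.40 in Control replicate 1 and Ltb was covered in all 6 libraries.

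The upstream sequences of 9 of the 10 genes were matched by symbol in RefSeq on GRCm38.p6. The 250 bases before the RefSeq transcription start were searched for binding motifs of the factors that drive cytokine genes, on both strands unless stated. For some genes this start differs from that of the gene measured here. The Csf2 window, chr11:54249900-54250149, does not adjoin the measured gene, which begins at 54249667, so the bases directly before it were not searched. The windows of Ltb, Tnfsf10 and Il2 run into the gene, that of Ltb to 35194506 where the gene begins at 35194439. GGAAA, the core bound by NFAT, occurred in all 9, and also in 55.6% of 32851 promoters of that length. The NF-kappaB consensus occurred in Ltb alone of the 9 and in 1.41% of all promoters, and this match overlaps a GGAAA. Neither the AP-1 motif TGANTCA (6.75% of all promoters) nor the T-box motif TCACACCT (1.12%) was found in the 9 windows. TATAAA on the sense strand, the letters of a TATA box, occurred in Ifng, Tnf, Lta and Il2 and in 7.59% of all promoters. The windows of the most abundant gene and of the neighbours Tnf and Lta are shown from 5′ to 3′ on the gene's strand, ending at the base before the start, with TATAAA in capitals. They are chr10:118440796-118441045 on the forward strand for Ifng, and chr17:35202008-35202257 and chr17:35205352-35205601 on the reverse strand for Tnf and Lta.
Ifng: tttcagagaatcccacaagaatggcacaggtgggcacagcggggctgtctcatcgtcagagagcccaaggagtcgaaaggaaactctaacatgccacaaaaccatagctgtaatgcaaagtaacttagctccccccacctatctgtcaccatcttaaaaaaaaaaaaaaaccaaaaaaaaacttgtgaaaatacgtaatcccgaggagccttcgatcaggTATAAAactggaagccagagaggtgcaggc
Tnf: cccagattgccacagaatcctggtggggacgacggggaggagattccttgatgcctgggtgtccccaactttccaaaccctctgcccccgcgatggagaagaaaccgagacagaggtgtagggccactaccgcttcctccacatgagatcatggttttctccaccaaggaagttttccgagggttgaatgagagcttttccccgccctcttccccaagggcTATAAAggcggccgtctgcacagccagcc
Lta: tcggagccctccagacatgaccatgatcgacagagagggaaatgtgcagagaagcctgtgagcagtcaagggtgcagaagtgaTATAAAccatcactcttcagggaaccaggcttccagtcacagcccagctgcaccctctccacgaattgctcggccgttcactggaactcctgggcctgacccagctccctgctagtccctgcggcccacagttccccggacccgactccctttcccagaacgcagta
TATAAA began 30 bases before the start in Ifng and 29 bases before it in Tnf. In Lta it lay farther away, at 167 bases, and is given as a match of letters only. No match says only that these letters are not in the window, and binding was not measured.

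Csf2 and Il3, neighbours on chromosome 11, were listed at 0 without stimulation. Csf2 (chr11:54247271-54249667, reverse strand) was listed at 0 in both Unstimulated libraries, at 4.37 and 2.15 FPKM in Control and at 4.43 and 6.26 FPKM in SMF. All stimulated libraries were above the Unstimulated ones, and SMF replicate 1 was barely above Control replicate 1. No fold is given against a group at 0. The adjusted limma p was 0.083 for Control against Unstimulated, called by the unadjusted p of 0.012, and 0.024 for SMF against Unstimulated. SMF against Control gave a log2 fold change of 0.61 (SE 0.58, 95% interval -0.79 to 2.01, adjusted p = 0.57). With libraries set to 1 Actb level this difference was -0.0053. These levels rested on 293 and 374 covered bases in Control and 1102 and 1370 in SMF, over a transcript of 800 bases. A gene on the opposite strand, Gm12223, shares 96 of the exon bases of Csf2. It was at 2.37 and 0 FPKM in Unstimulated, 25.4 and 29.96 FPKM in Control and 18.3 and 13.6 FPKM in SMF, above Csf2 in every stimulated library. The file headers give a strand setting for the reads, and whether it fits the kit was not tested.

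Il3 (chr11:54265303-54267277, reverse strand) lies 15635 bases upstream of Csf2 and was listed above 0 in the SMF libraries alone. It was listed at 0 in all 4 Unstimulated and Control libraries and at 1.53 and 9.55 FPKM in SMF. The 2 SMF libraries differed from each other by 2.06 on the log2(FPKM + 1) scale, more than for any other gene of the set in any group. Against Control it was called at an unadjusted limma p of 0.029 (adjusted p = 0.20), and against Unstimulated at the same unadjusted p (adjusted p = 0.088). With Control and Unstimulated both listed at 0, these 2 comparisons rest on the same values. The call against Control was lost when SMF and Control alone were fitted, and with 1 median or 1 Actb level per library. The values rested on 300 and 1642 covered bases in libraries that were 1.32 to 4.01 times as deep as those of Control, so the depth at which Il3 was listed at 0 in Control was lower. The call against Control was lost without either Control library (unadjusted limma p of 0.084 and 0.086) and without either Unstimulated library (0.063 and 0.064). The call against Unstimulated was lost without either Unstimulated library (0.1005 and 0.1013) and, in the fit of 3 groups, without either Control library (0.0501 and 0.0513).

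Il2 (chr3:37120523-37125959) and Il10 (chr1:131019845-131024974) were listed at 0 FPKM with 0 covered bases in every library, stimulated or not. Interleukin 2 is known as an early product of T cell activation, and these libraries hold the single time of 72 h. Whether the time accounts for the listing of Il2 at 0 was not tested. The receptor chain Il2ra, by contrast, was at 0.71 and 0.89 FPKM in Unstimulated, 52.4 and 59.2 FPKM in Control and 86.5 and 113 FPKM in SMF.

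The death ligands Fasl and Tnfsf10 stayed below 7 FPKM throughout. Fasl (chr1:161780689-161788495, reverse strand) was listed at 0 and at 1.11 FPKM in Unstimulated, at 6.25 and 4.64 FPKM in Control and at 0.94 and 4.95 FPKM in SMF. The Control libraries lay above the Unstimulated ones, while the SMF libraries were split, 1 within the Control range and 1 within the Unstimulated range. Control against Unstimulated gave a log2 fold change of 2.14 (SE 0.76, unadjusted limma p of 0.030, adjusted p = 0.14), and the folder dates gave 2.86 and 1.42. The call was lost without any 1 of the 4 libraries compared, at 1.60 to 2.68 and unadjusted limma p values of 0.054 to 0.17, and with the folder date as a block (0.054). SMF against Unstimulated gave 1.23 (SE 0.76, adjusted p = 0.29) and SMF against Control -0.91 (SE 0.76, 95% interval -2.76 to 0.94, adjusted p = 0.51). SMF replicate 2 was covered in the last exon alone, as was Unstimulated replicate 2.

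Tnfsf10 (chr3:27317028-27342427, forward strand) was at 3.29 and 4.92 FPKM in Unstimulated, 3.53 and 2.72 FPKM in Control and 4.51 and 1.34 FPKM in SMF. All 3 groups overlapped. The log2 differences were -0.30 (SE 0.61) for Control against Unstimulated, -0.49 for SMF against Unstimulated and -0.19 for SMF against Control, with adjusted limma p values of 0.80, 0.59 and 0.90. The 95% interval of the last ran from -1.67 to 1.29. In 5 of 6 libraries the covered bases lay wholly in the last exon, which takes 4444 of the 4993 bases of the transcript, and exons 1 to 4 had no coverage. Control replicate 1 was the exception, with 2.91% in exon 3 and 7.10% in exon 4. The Tnfsf10 values therefore describe that last exon.

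**Figure D4:**
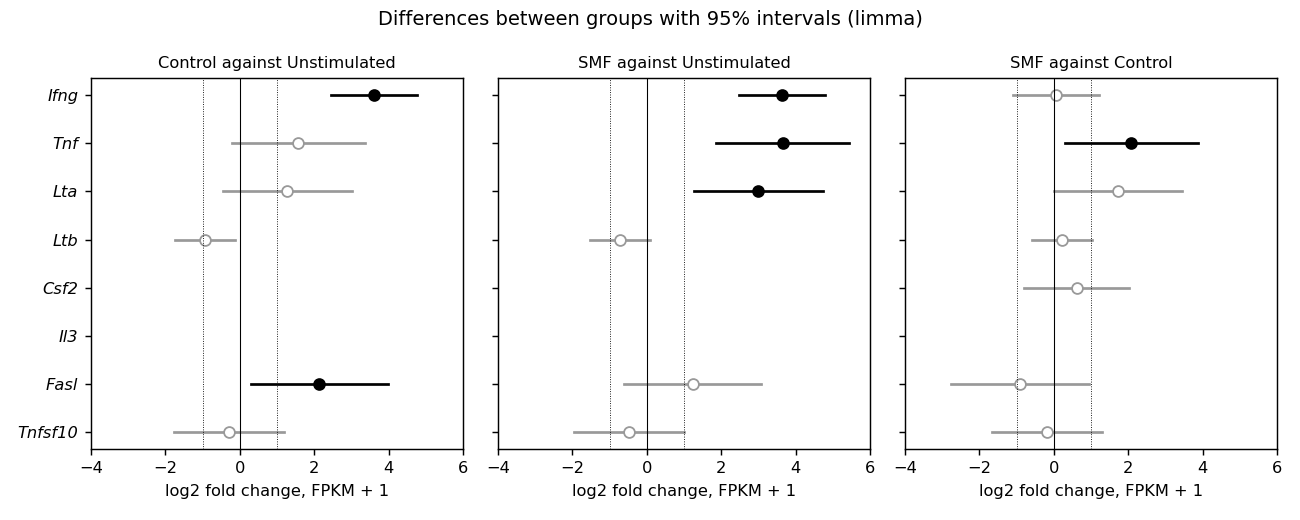
Log2 fold change on the FPKM + 1 scale (points) with its 95% interval from limma (lines) for each gene in the 3 comparisons. Filled black points were called (2-fold or more, unadjusted p no higher than 0.05), open grey points were not, dotted lines mark a fold of 2, and no point is drawn where a group was listed at 0. Ifng stood at 3.59 and 3.64 against Unstimulated and at 0.05 between SMF and Control, where Tnf stood at 2.08.

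Setting the levels in order within each group shows how little of the set was abundant. The order takes FPKM as it stands, without correcting for uneven coverage along the transcripts. In Unstimulated, Ltb was first and Ifng second, with no overlap, and the other 6 tested genes were at 4.92 FPKM or lower. In Control, Ifng was first and Ltb second, again with no overlap, while Tnf, Lta, Csf2, Fasl and Tnfsf10 all lay between 2.15 and 7.01 FPKM, each overlapping its neighbour in the order of means. In SMF, Ifng was first and Ltb second, and Tnf and then Lta followed. The lower Tnf library, at 21.5 FPKM, was just above the higher Lta library, at 20.4 FPKM. In the same group Csf2, Il3, Fasl and Tnfsf10 lay between 0.94 and 9.55 FPKM and overlapped one another.

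Of 17 genes for receptors of these ligands, 12 were tested. In Control against Unstimulated 2 were called higher and 3 lower, where 12.3% of all genes tested were called higher and 12.6% lower. In SMF against Unstimulated 3 were called higher and 2 lower, where these shares were 22.4% and 14.8%. Il2ra and Il2rb, chains of the interleukin 2 receptor, were called higher in both comparisons. Il2ra rose by 4.98 in Control (SE 0.33, adjusted p = 0.0052 by limma) and by 5.79 in SMF, and Il2rb by 1.27 and 1.23. Tnfrsf10b, the receptor of TRAIL, fell by 2.999 in Control (SE 0.42, adjusted p = 0.016 by limma) and fell by 2.52 in SMF. Ifngr2, the signalling chain of the interferon gamma receptor, fell by 2.21 and 2.73, from 7.97 and 5.75 FPKM in Unstimulated to at most 0.91 FPKM. Il10rb, a chain of the interleukin 10 receptor, fell by 1.28 in Control, and its difference of SMF from Control, 0.81, was not called (adjusted p = 0.29 by limma). In SMF against Control, 2 of 12 were called higher and 0 lower, where 12.5% of all genes were called higher and 5.72% lower. Il2rg, the chain shared by several cytokine receptors, was at 275 and 226 FPKM in SMF against 68.3 and 122 FPKM in Control (log2 fold change 1.44, SE 0.35, adjusted p = 0.15 by limma). Fas, the receptor of Fas ligand, was at 14.4 and 12.2 FPKM against 4.81 and 6.35 FPKM (1.12, SE 0.42, adjusted p = 0.21). The Fas call was lost with the replicate block, with quantile normalization, with libraries set to 1 median or to 1 Actb level, and without SMF replicate 1, SMF replicate 2 or Control replicate 1. That of Il2rg was lost without SMF replicate 1 and with 1 Actb level. Of the receptors called against Unstimulated, leaving out 1 library ended the calls of Il10rb in Control (without Unstimulated replicate 1), Il2rb in SMF (without Unstimulated replicate 2) and Fas in SMF (without SMF replicate 1).

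Among 18 transcription factors known to act on cytokine genes, 17 were tested. In Control against Unstimulated 4 were called higher and 3 lower, and in SMF against Unstimulated 4 and 4, where the shares of all genes were 12.3% and 12.6%, and 22.4% and 14.8%. Irf4, which is induced by T cell receptor signals, rose by 3.16 in Control (SE 0.31, adjusted p = 0.0080 by limma) and by 4.11 in SMF. The NF-kappaB genes Nfkb1 and Rel rose by 1.47 and 1.03 in Control and by 1.98 and 1.67 in SMF. Stat4, which relays interleukin 12 signals, rose by 1.32 in SMF, and Runx3, a factor of the CD8 lineage, by 1.51 in Control. With the folder date as a block, Irf4, Nfkb1, Fos and Jun stayed called in Control against Unstimulated and Runx3, Rel and Nfatc3 did not. The Runx3 call was also lost without Unstimulated replicate 1, Control replicate 1 or SMF replicate 1, and that of Rel in Control without Unstimulated replicate 2, Control replicate 2 or either SMF library. The AP-1 genes Fos and Jun were lower in stimulated cells: Fos fell by 4.72 in Control (SE 0.55, adjusted p = 0.012 by limma) and by 3.21 in SMF, and Jun by 1.84 and 2.10. Eomes, a T-box factor of CD8+ T cells, fell by 1.97 in SMF, from 26.9 and 12.7 FPKM to 2.97 and 5.26 FPKM, and was not called without Unstimulated replicate 1 or SMF replicate 1. The Jun calls were lost without either Unstimulated library and without replicate 2 of the stimulated group compared. In SMF against Control, 3 were called higher and 0 lower, with 0 at an adjusted p under 0.05, where 12.5% of all genes were called higher and 5.72% lower. They were Fos (1.51, at 2.89 and 3.74 against 0 and 1.27 FPKM), Batf (1.47, at 20.3 and 16.7 against 4.46 and 7.98 FPKM) and Ikzf1 (1.01). The Batf call was lost without SMF replicate 1. Those of Fos and Ikzf1 were lost without either Unstimulated library and without SMF replicate 2, that of Fos also without SMF replicate 1 or Control replicate 1, and that of Ikzf1 also without Control replicate 2. Tbx21, the T-box factor that drives Ifng, was not called in any of the 3 comparisons, with log2 differences of 0.64, 0.50 and -0.14.

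The genes that act on cytokine mRNA and on release were 9, all tested. In Control against Unstimulated 1 was called higher and 3 lower, and in SMF against Unstimulated 2 and 2, where the shares of all genes were 12.3% and 12.6%, and 22.4% and 14.8%. Zfp36 and Zfp36l2, whose proteins bind AU-rich elements such as those printed above and speed decay, were lower after stimulation. Zfp36 went from 27.8 and 30.9 FPKM in Unstimulated to 3.67 and 6.15 FPKM in Control (-2.39, SE 0.40, adjusted p = 0.023 by limma) and to 11.2 and 10.3 FPKM in SMF (-1.37, adjusted p = 0.052). Zfp36l2 fell by 2.22 in Control and by 1.23 in SMF, and Zfp36l1, of the same family, by 1.36 in Control. Elavl1, whose protein stabilises such mRNAs, rose by 1.01 and 1.32. Adam10, a protease that sheds Fas ligand among other membrane proteins, was at 34.0 and 30.6 FPKM in SMF against 13.5 and 16.5 FPKM in Control (1.07, SE 0.35, adjusted p = 0.19 by limma). Zfp36 was called higher in SMF than in Control as well (1.02, SE 0.40, adjusted p = 0.23). These 2 were the called genes of the 9 in that comparison, and 0 were called lower, where the shares of all genes were 12.5% and 5.72%. Both of these calls were lost with libraries set to 1 median, to 1 Actb level or to equal quantiles, and without SMF replicate 1, SMF replicate 2 or Control replicate 1. That of Zfp36 was also lost with the replicate block and without either Unstimulated library. In Control against Unstimulated, the calls of Zfp36 and Zfp36l2 held in all 22 alternatives, while that of Elavl1 was lost in 11, among them the folder date block, and that of Zfp36l1 without Unstimulated replicate 1 or Control replicate 2. In SMF against Unstimulated, the calls of Elavl1, Zfp36 and Zfp36l2 were lost without SMF replicate 2, and each also without at least 1 other library.

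Of 21 other cytokines and TNF family ligands, 10 were tested, and Il4, Il5, Il13, Il17a, Il21 and Il22 were among those with a mean under 1 FPKM. In Control against Unstimulated 4 were called higher and 2 lower, and in SMF against Unstimulated 6 and 1, where the shares of all genes were 12.3% and 12.6%, and 22.4% and 14.8%. Lif was listed at 0 in both Unstimulated libraries and was at 6.12 and 4.36 FPKM in Control and 2.55 and 8.21 FPKM in SMF. Tnfsf11, the gene of RANK ligand, was likewise listed at 0 in Unstimulated and was at 2.40 and 5.78 FPKM in Control and 10.99 and 6.87 FPKM in SMF. Cd40lg, a ligand typical of helper T cells, went the other way, from 6.21 and 2.33 FPKM in Unstimulated to a listing at 0 in all stimulated libraries. Lif and Tnfsf11 passed the filter through the stimulated libraries alone and Cd40lg through the Unstimulated ones alone. Against the group at 0 their direction was thus fixed. Il16 fell by 2.001 in Control. Tnfsf14, the gene of LIGHT, was at 0 and 2.89 FPKM in Unstimulated and at 8.01 and 13.9 FPKM in SMF (2.55, SE 0.80, adjusted p = 0.065 by limma), a call lost without Unstimulated replicate 1 or either SMF library. The Lif call in SMF against Unstimulated was lost without Unstimulated replicate 2. In SMF against Control, 2 were called higher and 0 lower. Tnfsf8, the CD30 ligand, was at 50.0 and 56.9 FPKM in SMF against 17.5 and 17.3 FPKM in Control (1.56, SE 0.31, adjusted p = 0.14 by limma), and Tnfsf4, the OX40 ligand, was at 11.6 and 19.5 FPKM against 2.60 and 1.66 FPKM (2.38, SE 0.66, adjusted p = 0.17). The Tnfsf4 call was lost without SMF replicate 2 or Control replicate 2, and that of Tnfsf8 held without any 1 library. Across the 4 lists, 9 genes were thus called higher and 0 lower in SMF against Control, where 12.5% of all genes were called higher and 5.72% lower. With libraries set to 1 Actb level, 0 of the 9 stayed called, and with libraries set to 1 median 4 did, namely Il2rg, Batf, Tnfsf4 and Tnfsf8. The median of all genes tested was also above 0 in that comparison, at 0.32, and was -0.30 with libraries set to 1 Actb level.

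**Figure D5:**
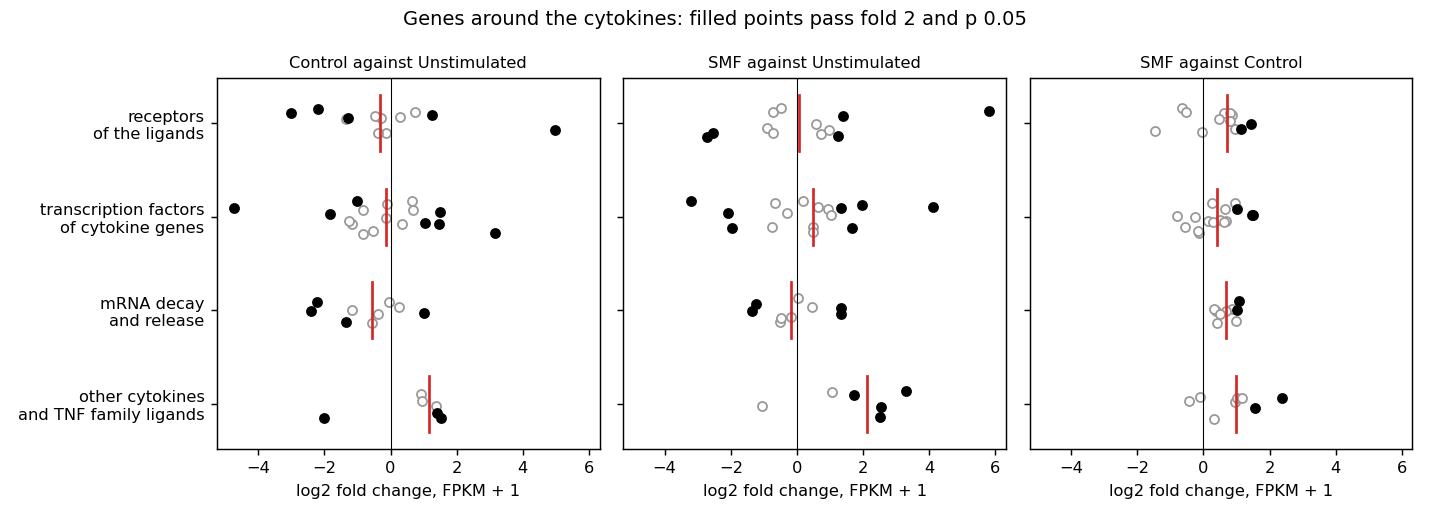
Log2 fold change on the FPKM + 1 scale of the tested genes of 4 lists in the 3 comparisons. Filled points were called (2-fold or more, unadjusted p no higher than 0.05), red bars are the median of the points drawn, vertical scatter is arbitrary, and genes with a group listed at 0 are left out. Called receptors and transcription factors lie on both sides of 0 in the comparisons with Unstimulated. In SMF against Control the 9 called genes of the 4 lists lie to the right of 0, and 0 of these calls stayed with libraries set to 1 Actb level.

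The genes nearest in profile to 3 of the set were sought over the 6 libraries, by the Euclidean distance of the centred log2(FPKM + 1) values among the 7171 named genes averaging 5 FPKM or more. For Ifng they were Fdps, Spc24 and Zbtb32, at distances of 0.55, 0.63 and 0.72. Fdps, an enzyme of the mevalonate pathway, was at 4.45 and 1.01 FPKM in Unstimulated, 46.0 and 39.4 FPKM in Control and 35.4 and 55.8 FPKM in SMF. For Tnf they were Ndufc2, Polr2f and Tmed3, at 0.49, 0.71 and 0.71. Ndufc2, a subunit of respiratory complex I, was at 1.90 and 11.5 FPKM in Unstimulated, 24.7 and 14.8 FPKM in Control and 66.5 and 64.6 FPKM in SMF, and so shared with Tnf the higher Unstimulated replicate 2 and the higher Control replicate 1. For Ltb they were Fbxw2, Tespa1 and Arid1a, at 0.33, 0.35 and 0.36. All points share their libraries, and the distances are descriptions.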

How the data were processed

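RNA was measured in 6 libraries, made from total RNA with a SMARTer stranded Pico kit. Per the file headers, the authors quantified annotated transcripts with StringTie 1.3.5 on GRCm38 with GENCODE M19; the submitters' processing notes also name Trimmomatic 0.36, HISAT2 and mm10. The deposited values are transcript FPKM and TPM, normalized for length and library size, and coverage, which is not normalized. A deposited gene table with 3 columns that match no sample was not used. The files hold no read counts, so no counting intervals are given.

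Gene FPKM was summed over transcripts. Covered bases are coverage times transcript length. limma 3.58.1 (R 4.3.3, variance trend) was fitted on log2(FPKM + 1) for the 3 groups together, with 3 residual degrees of freedom per gene. On simulated data it called 80.5% of changed and 4.41% of unchanged genes. The changed genes were drawn only from those with a mean log2(FPKM + 1) of at least 3, which Ifng and Ltb alone of the set reached. The simulated noise was normal and independent, with a spread set by the gene's mean alone and no effect of depth or date. The 80.5% therefore does not describe the other genes of the set, and the 4.41% is not a rate of false calls in these data. Tables and figures were made with Python 3.11.15, pandas 2.3.3, numpy 2.4.6 and matplotlib 3.10.9.

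The members and lists were chosen with earlier results of these data known. All members were named, with up to 4 called genes of largest change per list and comparison and the 3 nearest profiles of Ifng, Tnf and Ltb. Il2rb, Rel, Stat4, Eomes, Tbx21, Nfatc3 and Tnfsf9 were named beyond this rule after their values were seen. Alternatives were other pseudocounts, filters, scalings, fold limits and variance models, gene TPM, a replicate block, a length trend and leaving out each library. The folder date block and the Actb scaling were added after the data were seen. A further marker gene of the B cell list is not reported here.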

Additional observations from a re-analysis of the deposited data

How the results depend on the processing

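The limits are set by 2 libraries per group and by low coverage of Tnf, Lta, Csf2 and Il3 in Unstimulated and Control libraries. They are also set by folder dates that SMF shares with neither Control nor Unstimulated. Of 433 alternative values, 380 kept their direction and side of the threshold, 31 lost a call, 9 gained one and 13 changed sign. With an adjusted p under 0.05, 1 gene was called in Control against Unstimulated in place of 3, and 0 in SMF against Control in place of 2. With a mean of at least 5 FPKM, which leaves out 4 of the 8 genes, the counts were 1, 3 and 1 in place of 3, 5 and 2. For SMF against Control, 1 gene was called with a pseudocount of 0.1 or 0.5 (Il3), with 1 median per library (Tnf) and with gene TPM (Il3), and 0 with 1 Actb level per library. The cause of these changes was not tested. Leaving out 1 library gave 2 to 3 called genes in Control against Unstimulated, 4 to 5 in SMF against Unstimulated and 0 to 2 in SMF against Control. The last count was 0 without either Control library, 1 (Il3) without either SMF library, and 2 (Tnf and Lta) without either Unstimulated library. All genes tested had a median difference of SMF from Control of 0.32, which was -0.02 with 1 median per library and -0.30 with 1 Actb level.

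Signs changed where the difference was near 0. Ifng in SMF against Control went to -0.30 with 1 median per library, to -0.57 with 1 Actb level, and to between -0.37 and 0.46 when 1 library was left out (-0.31 without SMF replicate 2, the lowest without Control replicate 2). Ltb went to -0.13 with 1 median, -0.067 with quantile normalization, -0.40 with 1 Actb level, and to between -0.038 and 0.47 when 1 library was left out (-0.011 without SMF replicate 2). Csf2 went to -0.0053 with 1 Actb level. Tnfsf10 ranged from -0.81 to 0.42 in SMF against Control and from -1.11 to 0.13 in SMF against Unstimulated when 1 library was left out, being highest without SMF replicate 2, and went to 0.060 in Control against Unstimulated with 1 Actb level.

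Deviations from the group means correlated across genes by 0.10 between same-numbered Control and Unstimulated libraries, 0.02 between Control and SMF and 0.03 between SMF and Unstimulated, so the numbers were not taken to pair the libraries. With the replicate block the same genes of the set were called, 3, 5 and 2. With the folder date as a block, Control against Unstimulated gave 2 called genes, Ifng and Csf2. Of the genes called in the 4 related lists, 22, 24 and 9 in the 3 comparisons, 20, 23 and 7 stayed called with the replicate block, which ended the SMF against Control calls of Fas and Zfp36. With the folder date block 17 of the 22 stayed, without Runx3, Rel, Nfatc3, Elavl1 and Tnfsf9. With 1 Actb level 12, 14 and 0 stayed.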
